A study of Mus musculus with 57 samples.

Results

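Axin2, Nkd1, Rnf43, Znrf3, Lgr5, Ascl2, Sp5, Tcf7, Lef1 and Smoc2 are 10 genes of intracellular Wnt feedback and of the crypt base that were followed through mouse colon tumorigenesis. A gene was taken by its symbol from probe sets that name 1 gene only, with the brightest probe set where there were several. By this rule 9 of the 10 genes were measured, among 22180 genes in all, and Tcf7 was not analysed here. Each value is the log2 expression level of a gene on an Affymetrix whole-transcript array, of which 57 were read.

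The mice were C57BL/6 adults of 18 to 24 weeks, and the protocol of the treated animals names females. The controls were INSRfl/fl littermates, called fl/fl here, whose floxed Insr allele is not cut. In the villin-CRE-INSR-/- animals, called the knockout, Cre driven by the villin promoter inactivates the insulin receptor gene in the intestinal epithelium, so the other cells of the sample keep it. Distal colon was taken from untreated mice (10 fl/fl and 10 knockout) and from mice given AOM+DSS (10 and 10), and tumors from AOM+DSS mice were taken as well (8 and 9). AOM+DSS stands for 1 intraperitoneal injection of azoxymethane, a colon carcinogen, at 7.4 mg/kg, and 3% dextran sulfate sodium, which injures the colon epithelium, for 7 days in week 2, with the animals killed in week 5. Whether any tumor shares its mouse with a colon sample is not in the labels. They call the samples biological replicates, and p-values measure the spread between them.

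In the crypt, Wnt ligands and their receptors keep beta-catenin from being destroyed, and beta-catenin with TCF and LEF factors then switches on target genes. Several of those targets act back on the pathway: Axin2 is a scaffold of the beta-catenin destruction complex, Nkd1 binds Dishevelled, and Rnf43 and Znrf3 are ubiquitin ligases that remove Frizzled receptors from the cell surface. Lgr5, a receptor for R-spondins, Ascl2, a transcription factor, and Smoc2, a secreted matrix protein, mark the stem cells at the crypt base.

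The targeted gene was checked first. Insr ranged from 8.70 to 9.16 (median 9.01) in untreated fl/fl colon and from 7.74 to 8.29 (median 8.04) in untreated knockout colon. In AOM+DSS colon it ranged from 8.28 to 8.94 (median 8.51) in fl/fl and from 7.52 to 7.96 (median 7.72) in the knockout. In tumors it ranged from 7.70 to 8.50 (median 8.20) in fl/fl and from 7.17 to 8.35 (median 7.38) in the knockout. The genotypes did not overlap in either kind of colon and overlapped in the tumors. The probe set is not tied to the deleted part of the gene in the sources used here. Array medians lay between 5.92 and 6.04, and arrays correlated with the others of their group at a mean of 0.981 to 0.992, lowest for untreated knockout replicate 2. Of the epithelial markers, the group means of Epcam ran from 11.91 to 12.05 and those of Vil1 from 10.97 to 11.47, so epithelial transcripts were present in all 6 groups. Vil1 and other epithelial markers were lower in tumors, as given below.

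Every measured gene was higher in tumors than in AOM+DSS colon, in both genotypes. Nkd1 and Lgr5 rose by 8.88 to 12-fold, Lef1, Axin2 and Rnf43 by 4 to 5.96-fold, and Znrf3, Smoc2, Sp5 and Ascl2 by 2.57 to 3.47-fold. All 9 passed an adjusted p of 0.05 in limma (a linear model with moderated variances, Benjamini-Hochberg over 22180 genes), where 21% of all genes were called higher in fl/fl and 21.5% in the knockout. In all 9, in each genotype, every tumor lay above every AOM+DSS colon sample, which held for 5.61% of all genes in fl/fl and 7.46% in the knockout. The set was chosen with earlier results of these data known, so these shares are a background and no test of the set. The median change of the 9 was 2.00 in fl/fl and 2.09 in the knockout, beside 0.02 and 0.00 over all genes. In bulk tissue a change in the number of cells of a type and in RNA per cell cannot be told apart.

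**Figure D1:**
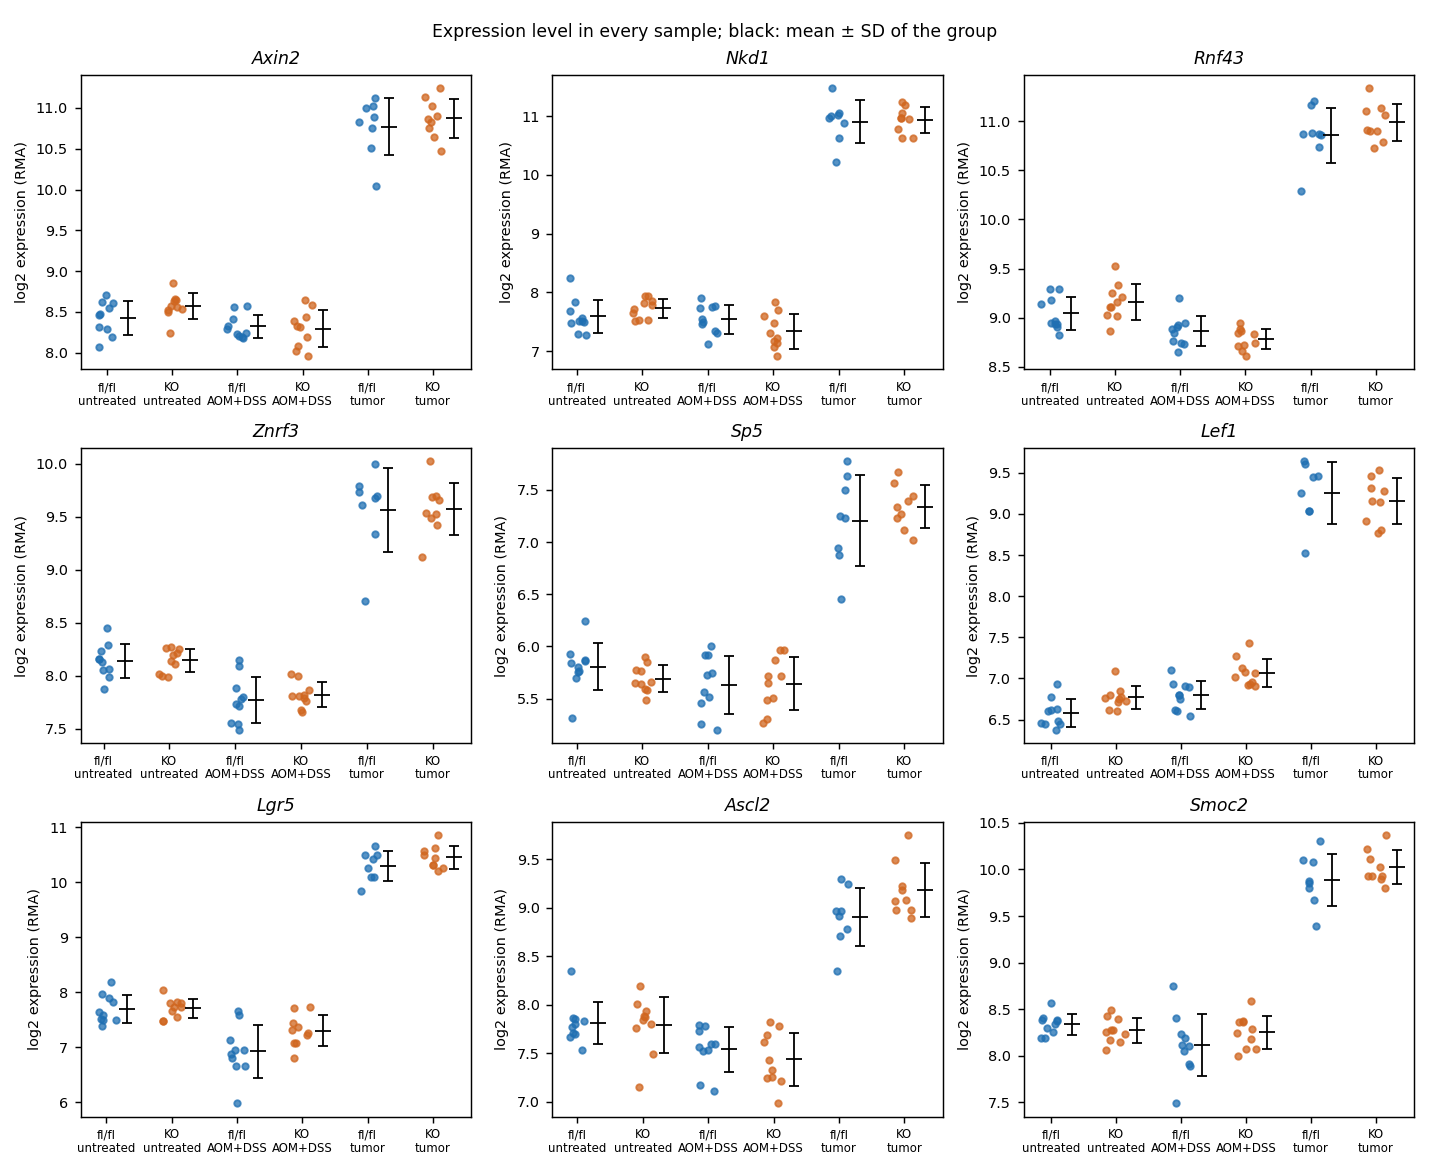
Log2 expression of the 9 measured genes (y axis, RMA) in all 57 samples by group (x axis), with fl/fl in blue and the villin-CRE knockout (KO) in orange; black marks give the group mean ± SD. For every gene but Ascl2, all 17 tumors lie above all 40 colon samples.

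Promoter sequence was read for the listed genes where it was available, and the genes found include Tcf7, whose expression was not analysed here. RefSeq (GRCm38.p6) windows were found for 7 of the 10 genes, and the 4 windows that lie before the outermost annotated start of their gene are shown, as the 250 bases before the start, 5′ to 3′, with matches to the core letters of a TCF/LEF motif in capitals. The letters searched on both strands were CTTTGAA and also the variants CTTTGAT and then CTTTGTA and finally CTTTGTT, and 14.8% of 32851 windows of this length hold at least 1 of them.
Sp5, chr2:70474673-70474922, plus strand: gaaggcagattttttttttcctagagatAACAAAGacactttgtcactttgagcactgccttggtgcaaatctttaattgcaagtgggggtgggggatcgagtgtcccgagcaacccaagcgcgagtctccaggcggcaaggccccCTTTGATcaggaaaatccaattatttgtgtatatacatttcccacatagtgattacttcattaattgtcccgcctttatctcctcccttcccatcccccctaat
Lef1, chr3:131110047-131110296, plus strand: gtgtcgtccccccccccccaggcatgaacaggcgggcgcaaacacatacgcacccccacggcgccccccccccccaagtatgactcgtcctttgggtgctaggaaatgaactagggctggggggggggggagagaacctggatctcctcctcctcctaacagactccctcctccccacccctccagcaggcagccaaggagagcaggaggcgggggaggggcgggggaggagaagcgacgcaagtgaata
Rnf43, chr11:87662837-87663086, plus strand: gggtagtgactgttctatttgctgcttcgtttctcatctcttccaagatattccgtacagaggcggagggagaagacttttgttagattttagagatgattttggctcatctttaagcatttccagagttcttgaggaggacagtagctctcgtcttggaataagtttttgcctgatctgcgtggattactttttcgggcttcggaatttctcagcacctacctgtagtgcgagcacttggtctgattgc
Ascl2, chr7:142969265-142969514, minus strand: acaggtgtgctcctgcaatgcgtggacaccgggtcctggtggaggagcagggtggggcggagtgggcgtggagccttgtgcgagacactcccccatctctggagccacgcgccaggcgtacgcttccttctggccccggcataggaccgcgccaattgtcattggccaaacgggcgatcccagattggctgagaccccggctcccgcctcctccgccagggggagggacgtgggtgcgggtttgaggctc
The Sp5 window holds CTTTGAT at 104 to 98 bases before the start and AACAAAG, the reverse complement of CTTTGTT, at 222 to 216. The Lef1, Rnf43 and Ascl2 windows shown here hold none of these letters, which says only that they are not in these 250 bases. Of all 12 windows of the 7 genes, 2 held a match, the other being a further Lef1 window before an internal start, with TACAAAG at 147 to 141 bases before that start. Their GC content was 66.4% for Lef1, 44.4% for Rnf43, 67.6% for Ascl2 and 46% for Sp5.

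The feedback inhibitors inside the cell come first. Axin2 in fl/fl mice ranged from 8.08 to 8.71 (median 8.47) in untreated colon, from 8.18 to 8.57 (median 8.27) in AOM+DSS colon and from 10.04 to 11.12 (median 10.86) in tumors. Axin2 in knockout mice ranged from 8.24 to 8.86 (median 8.56) in untreated colon, from 7.96 to 8.65 (median 8.33) in AOM+DSS colon and from 10.48 to 11.24 (median 10.86) in tumors. All tumors of both genotypes stood more than a log2 unit above the highest colon sample. From AOM+DSS colon to tumor, Axin2 rose by 2.45 ± 0.10 (log2, SE) in fl/fl mice (5.46-fold, adjusted p = 1.74e-27) and 2.58 ± 0.10 in the knockout (5.96-fold, adjusted p = 3.42e-29). Nkd1, which ties up Dishevelled, showed one of the 2 largest shifts. Nkd1 in fl/fl mice ranged from 7.27 to 8.25 (median 7.52) in untreated colon, from 7.13 to 7.90 (median 7.52) in AOM+DSS colon and from 10.21 to 11.48 (median 10.99) in tumors. Nkd1 in knockout mice ranged from 7.51 to 7.94 (median 7.76) in untreated colon, from 6.92 to 7.84 (median 7.27) in AOM+DSS colon and from 10.62 to 11.24 (median 10.96) in tumors. Tumors were far from any colon sample, and the smallest gap between the lowest tumor and the highest colon sample was 1.96. Nkd1 was higher in tumors than in AOM+DSS colon by 3.36 ± 0.12 (log2, SE) in fl/fl mice (10.3-fold, adjusted p = 1.35e-30) and 3.59 ± 0.12 in the knockout (12-fold, adjusted p = 1.57e-32). Axin2 also has a dimmer probe set, with a mean level of 6.38 against 9.13 for the one used. That probe set changed by 1.38 ± 0.11 in fl/fl and by 1.40 ± 0.10 in the knockout, the same direction by less.

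Rnf43 and Znrf3 encode the paired membrane ligases that clear Wnt receptors. Rnf43 in fl/fl mice ranged from 8.83 to 9.30 (median 8.96) in untreated colon, from 8.65 to 9.20 (median 8.86) in AOM+DSS colon and from 10.29 to 11.20 (median 10.87) in tumors. Rnf43 in knockout mice ranged from 8.87 to 9.53 (median 9.13) in untreated colon, from 8.61 to 8.94 (median 8.79) in AOM+DSS colon and from 10.73 to 11.34 (median 10.91) in tumors. No tumor overlapped any colon sample. The rise of Rnf43 over AOM+DSS colon was 2.00 ± 0.087 (log2, SE) in fl/fl mice (4-fold, adjusted p = 3.05e-27) and 2.21 ± 0.084 in the knockout (4.62-fold, adjusted p = 7.38e-30). Znrf3 moved the same way with a smaller margin. Znrf3 in fl/fl mice ranged from 7.88 to 8.45 (median 8.14) in untreated colon, from 7.49 to 8.15 (median 7.76) in AOM+DSS colon and from 8.70 to 10.00 (median 9.69) in tumors. Znrf3 in knockout mice ranged from 7.99 to 8.27 (median 8.17) in untreated colon, from 7.66 to 8.02 (median 7.81) in AOM+DSS colon and from 9.12 to 10.02 (median 9.53) in tumors. The lowest tumor, fl/fl tumor 7 at 8.70, stood 0.25 above the highest colon sample, an untreated fl/fl colon. Znrf3 rose over AOM+DSS colon by 1.79 ± 0.10 (log2, SE) in fl/fl mice (3.47-fold, adjusted p = 8.68e-22) and 1.75 ± 0.099 in the knockout (3.37-fold, adjusted p = 5.67e-22).

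Sp5 and Lef1 encode DNA-binding proteins of the pathway's nuclear end: Sp5 is a zinc finger factor that is itself a Wnt target, and Lef1 is a partner of beta-catenin. Sp5 in fl/fl mice ranged from 5.31 to 6.24 (median 5.82) in untreated colon, from 5.20 to 6.00 (median 5.65) in AOM+DSS colon and from 6.46 to 7.77 (median 7.24) in tumors. Sp5 in knockout mice ranged from 5.49 to 5.89 (median 5.66) in untreated colon, from 5.27 to 5.96 (median 5.68) in AOM+DSS colon and from 7.02 to 7.67 (median 7.33) in tumors. Its tumors cleared all colon samples, by 0.21 at the narrowest. Sp5 was dim in colon, where its group means of 5.63 to 5.81 lay below the array medians of 5.92 to 6.04. Its changes therefore start from a low signal. For Sp5, tumors exceeded AOM+DSS colon by 1.58 ± 0.12 (log2, SE) in fl/fl mice (2.98-fold, adjusted p = 1.7e-16) and 1.70 ± 0.12 in the knockout (3.24-fold, adjusted p = 2.89e-18). Lef1 is made by lymphocytes as well as by Wnt-activated epithelium. Lef1 in fl/fl mice ranged from 6.38 to 6.93 (median 6.54) in untreated colon, from 6.55 to 7.10 (median 6.80) in AOM+DSS colon and from 8.53 to 9.64 (median 9.35) in tumors. Lef1 in knockout mice ranged from 6.60 to 7.09 (median 6.76) in untreated colon, from 6.91 to 7.43 (median 7.04) in AOM+DSS colon and from 8.77 to 9.54 (median 9.16) in tumors. Tumors stood apart from all colon samples, and AOM+DSS colon was spread across the upper part of the untreated range and beyond it. Lef1 exceeded its level in AOM+DSS colon by 2.46 ± 0.10 (log2, SE) in fl/fl mice (5.5-fold, adjusted p = 1.09e-27) and 2.08 ± 0.10 in the knockout (4.24-fold, adjusted p = 3.72e-25).

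Lgr5, Ascl2 and Smoc2 are the crypt-base stem cell genes of the set. Lgr5 in fl/fl mice ranged from 7.39 to 8.19 (median 7.62) in untreated colon, from 5.99 to 7.66 (median 6.92) in AOM+DSS colon and from 9.85 to 10.66 (median 10.34) in tumors. Lgr5 in knockout mice ranged from 7.48 to 8.04 (median 7.74) in untreated colon, from 6.81 to 7.73 (median 7.29) in AOM+DSS colon and from 10.21 to 10.86 (median 10.44) in tumors. The tumors lay above all colon samples by at least 1.66, and AOM+DSS colon reached lower than untreated colon in both genotypes. Against AOM+DSS colon, Lgr5 rose by 3.37 ± 0.14 (log2, SE) in fl/fl mice (10.3-fold, adjusted p = 1.63e-28) and 3.15 ± 0.13 in the knockout (8.88-fold, adjusted p = 6.92e-28). A dimmer probe set of Lgr5 (mean level 5.74 against 8.30) changed by 1.33 ± 0.10 in fl/fl and 1.37 ± 0.097 in the knockout, so the size of the Lgr5 change rests on the probe set while its direction does not. Ascl2 had the smallest tumor change of the set in fl/fl mice. Ascl2 in fl/fl mice ranged from 7.53 to 8.35 (median 7.79) in untreated colon, from 7.11 to 7.79 (median 7.58) in AOM+DSS colon and from 8.35 to 9.29 (median 8.94) in tumors. Ascl2 in knockout mice ranged from 7.16 to 8.19 (median 7.86) in untreated colon, from 6.99 to 7.82 (median 7.38) in AOM+DSS colon and from 8.90 to 9.75 (median 9.07) in tumors. The lowest fl/fl tumor, at 8.35, was level with untreated fl/fl colon replicate 8, so Ascl2 alone of the 9 did not separate every tumor from every colon sample. Ascl2 rose in tumors over AOM+DSS colon by 1.36 ± 0.12 (log2, SE) in fl/fl mice (2.57-fold, adjusted p = 3.45e-14) and 1.75 ± 0.12 in the knockout (3.35-fold, adjusted p = 9.99e-19). Smoc2 is made by stem cells and also by stromal cells. Smoc2 in fl/fl mice ranged from 8.19 to 8.56 (median 8.36) in untreated colon, from 7.49 to 8.75 (median 8.11) in AOM+DSS colon and from 9.40 to 10.31 (median 9.87) in tumors. Smoc2 in knockout mice ranged from 8.06 to 8.49 (median 8.26) in untreated colon, from 8.00 to 8.59 (median 8.26) in AOM+DSS colon and from 9.80 to 10.37 (median 9.93) in tumors. The tumors were above all colon samples by 0.65 or more. In tumors Smoc2 was above AOM+DSS colon by 1.77 ± 0.10 (log2, SE) in fl/fl mice (3.41-fold, adjusted p = 5.85e-22) and 1.77 ± 0.097 in the knockout (3.41-fold, adjusted p = 1.31e-22).

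Measured against untreated colon, all 9 genes also passed as higher in tumors, where 22.9% of all genes did in fl/fl and 23.6% in the knockout. The changes ran from 1.09 ± 0.12 for Ascl2 to 3.31 ± 0.12 for Nkd1 in fl/fl mice, and from 1.39 ± 0.12 for Ascl2 to 3.20 ± 0.12 for Nkd1 in the knockout. The estimated gain of Lef1 was larger over untreated colon (2.68 ± 0.10 in fl/fl) than over AOM+DSS colon (2.46 ± 0.10). For Lgr5 it was smaller (2.60 ± 0.14 against 3.37 ± 0.14). Each gap is the change of that gene from untreated to AOM+DSS colon, which in fl/fl passed for Lgr5 and not for Lef1 (limma adjusted p = 0.102). The tumor comparisons with untreated and with AOM+DSS colon share their tumor samples, so they are not independent of each other. Taking both genotypes together, all 17 tumors exceeded all 40 colon samples for 8 of the 9 genes, which held for 2.67% of all genes. As the set was chosen with earlier results of these data known, that share is no test of it either.

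The make-up of the tumor samples differed from that of AOM+DSS colon. Of all genes, 21% rose and 20.2% fell in fl/fl tumors, and 21.5% and 21.4% in the knockout, which is the background for the counts of this and the other lists. All 12 smooth muscle markers fell in both genotypes, with list means of 10.59 to 11.35 in fl/fl AOM+DSS colon and 8.91 to 9.95 in fl/fl tumors, and of 10.49 to 11.16 and 8.43 to 9.93 in the knockout. Of 14 epithelial markers, 1 rose and 7 fell in each genotype. Krt18 was 0.91 ± 0.096 higher in fl/fl, while Cdx1, a gut homeobox factor, changed by -1.07 ± 0.11, Lgals4 by -0.39 ± 0.05 and Vil1 by -0.40 ± 0.069. The epithelial list had means of 11.10 to 11.42 in fl/fl colon and 10.96 to 11.32 in fl/fl tumors, and of 11.07 to 11.44 and 10.78 to 11.28 in the knockout. All 9 B cell markers fell in both genotypes, from 5.91 to 8.52 in fl/fl colon to 5.60 to 7.65 in fl/fl tumors, and from 7.66 to 8.34 to 5.70 to 6.62 in the knockout. Of 10 T cell markers, 2 fell in fl/fl and 7 in the knockout (medians -0.08 and -0.44), with list means of 6.26 to 6.96 and 6.67 to 7.34 in AOM+DSS colon and of 6.11 to 6.86 and 6.08 to 6.80 in tumors. Of 12 fibroblast markers, 9 fell in fl/fl and 10 in the knockout. Of 13 squamous markers, 4 and 5 fell (medians -1.12 and -1.57). All 13 proliferation markers rose, with a median of 0.70 in each genotype. With the smooth muscle list mean as a covariate all 9 genes still passed as higher, where 1044 of 22180 genes did in fl/fl and 1018 in the knockout. The least shift was then 1.21 ± 0.25 for Ascl2 in fl/fl, and Smoc2 went from 1.77 ± 0.10 to 1.38 ± 0.20. The smooth muscle list means did not overlap between tumors and AOM+DSS colon, so this covariate and the tissue compared cannot be told apart. With the epithelial list mean as a covariate the change of Axin2 in fl/fl was 2.46 ± 0.12 and that of Lgr5 was 3.35 ± 0.15. The part of proliferating cells in these changes was not tested.

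**Figure D2:**
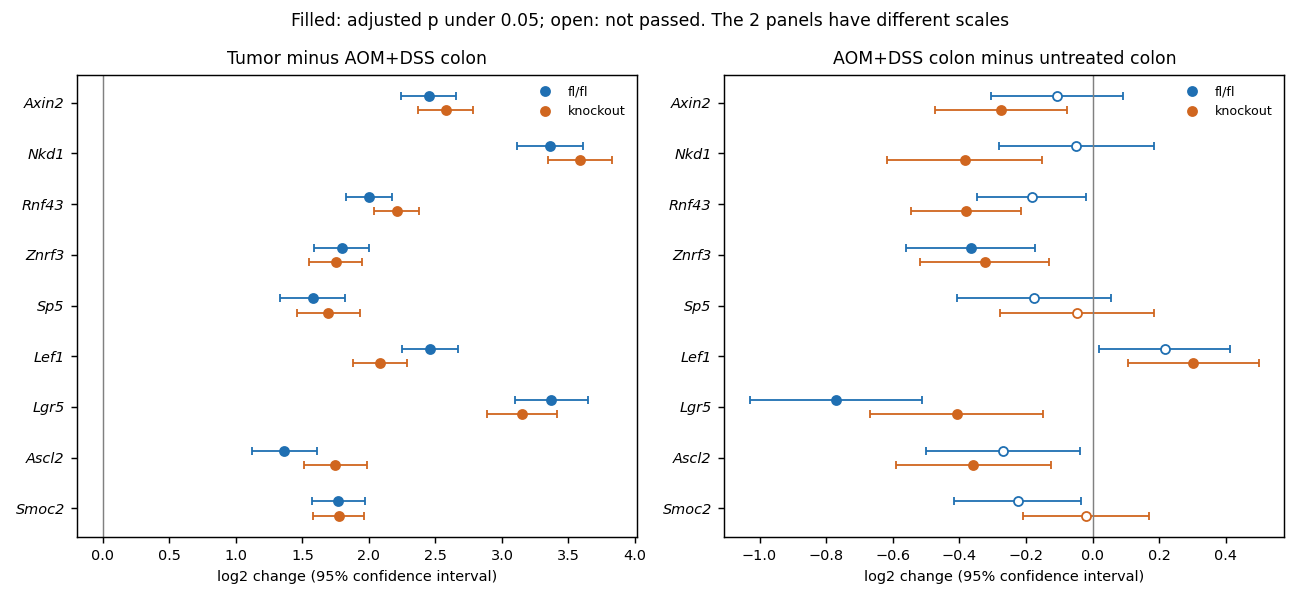
Log2 change (x axis) with its 95% confidence interval for each gene (y axis), tumor minus AOM+DSS colon at left and AOM+DSS colon minus untreated colon at right, on different scales; fl/fl in blue, knockout in orange, filled where the adjusted p was under 0.05. All 18 tumor changes are filled and lie between 1.36 and 3.59, while the AOM+DSS changes lie between -0.77 and 0.30.

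In AOM+DSS colon against untreated colon part of the set was lower. In fl/fl mice, Lgr5 fell by 0.77 (SE 0.13, adjusted p = 1.06e-05) and Znrf3 fell by 0.37 (SE 0.097, adjusted p = 0.00404), and the other 7 did not pass. In the knockout 6 genes fell and Lef1 rose. Of all genes, 10.5% were called lower and 12.2% higher in fl/fl, and 14.2% lower and 16% higher in the knockout. The median change of the 9 was -0.18 in fl/fl and -0.32 in the knockout, beside -0.04 over all genes in each.

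Among the feedback genes in the knockout, Rnf43 fell by 0.38 (SE 0.082, adjusted p = 0.000205), Nkd1 by 0.38 (SE 0.12, adjusted p = 0.00824), Znrf3 by 0.32 (SE 0.097, adjusted p = 0.00718) and Axin2 by 0.28 (SE 0.099, adjusted p = 0.0278). Of the 10 knockout AOM+DSS samples, 7 lay below every untreated knockout sample for Rnf43 and for Nkd1, 8 for Znrf3 and 4 for Axin2. The same genes in fl/fl mice had changes of -0.18 ± 0.082 for Rnf43, -0.05 ± 0.12 for Nkd1 and -0.11 ± 0.099 for Axin2, none of which passed (adjusted p = 0.0961, 0.793 and 0.457). Passing in one genotype and not in the other is not a difference between them: the interaction was -0.34 ± 0.16 for Nkd1 (adjusted p = 0.812), -0.20 ± 0.12 for Rnf43 (adjusted p = 0.828) and -0.17 ± 0.14 for Axin2 (adjusted p = 0.88). Without untreated knockout replicate 2, the Axin2 change was -0.24 ± 0.10 with an adjusted p of 0.0627.

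Of the stem cell genes, Lgr5 also fell in the knockout, by 0.41 (SE 0.13, adjusted p = 0.0113), and 8 of 10 AOM+DSS samples lay below all untreated samples in each genotype. Its dimmer probe set changed by -0.16 ± 0.094 in fl/fl and -0.38 ± 0.094 in the knockout. Ascl2 fell by 0.36 in the knockout (SE 0.12, adjusted p = 0.0134), and all 10 AOM+DSS samples were below the untreated median. Its change in fl/fl was -0.27 ± 0.12 (adjusted p = 0.0848), with 9 of 10 samples below that median. Smoc2 changed by -0.23 ± 0.095 in fl/fl (adjusted p = 0.0778) and by -0.02 ± 0.095 in the knockout (adjusted p = 0.896). For Smoc2 and Lgr5 the fl/fl AOM+DSS group was the widest of the 6, with SDs of 0.33 and 0.48, and replicate 8 was the lowest sample of that group for 6 of the 9 genes. The same sample had the highest squamous list mean of its group (9.53, median 8.02) and the lowest proliferation list mean (7.93, median 8.61), whose part in its values was not tested.

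At the nuclear end, Lef1 rose by 0.30 in the knockout (SE 0.098, adjusted p = 0.0138), with all 10 AOM+DSS samples above the untreated median, and its change in fl/fl was 0.22 ± 0.098 (adjusted p = 0.102), with all 10 above that median too. Sp5 changed by -0.18 ± 0.12 in fl/fl (adjusted p = 0.269) and -0.05 ± 0.12 in the knockout (adjusted p = 0.8). Lymphocyte markers were higher in AOM+DSS colon. Of 10 T cell markers, 6 rose in fl/fl and 9 in the knockout, with list means of 5.87 to 6.37 and 5.82 to 6.32 in untreated colon and of 6.26 to 6.96 and 6.67 to 7.34 in AOM+DSS colon. Of 9 B cell markers, 8 and 9 rose, with list means of 5.71 to 7.29 and 5.83 to 7.22 in untreated colon and of 5.91 to 8.52 and 7.66 to 8.34 in AOM+DSS colon. Of 13 squamous markers, which colon epithelium lacks and the anal margin has, 7 and 6 rose. The median of the squamous list mean was 5.53 in untreated fl/fl and 5.62 in untreated knockout colon, against 8.02 and 7.91 in AOM+DSS colon, and the groups overlapped (5.41 to 8.95 and 5.32 to 8.11 against 5.42 to 9.53 and 5.42 to 9.64).

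With the T cell list mean as a covariate, 1 gene (Lgr5) passed in fl/fl and 0 in the knockout, and of all genes 416 and 207 passed in place of 5044 and 6692. Nkd1 in the knockout was then -0.03 ± 0.18, Rnf43 -0.18 ± 0.13 and Axin2 -0.14 ± 0.16, while Lef1 was 0.36 ± 0.16 and Lgr5 -0.48 ± 0.21. With the B cell list mean as a covariate, 1 gene (Lgr5) passed in the knockout, where 1299 of all genes passed, and Nkd1 was -0.31 ± 0.17. In the knockout neither the T cell nor the B cell list mean overlapped between untreated and AOM+DSS colon. These covariates and the treatment therefore cannot be told apart there, and the lost calls do not show what the changes rest on. With the epithelial list mean as a covariate, Axin2 (-0.268 ± 0.105, adjusted p = 0.0525) and Lef1 (0.245 ± 0.102, adjusted p = 0.0674) no longer passed in the knockout. With the squamous list mean Lgr5 did not pass (-0.32 ± 0.14, adjusted p = 0.0798). Over all alternatives the knockout change of Lef1 lay between 0.245 and 0.364. The count in fl/fl also moved with scaling, to 5 after a shift of every array to 1 median, where Rnf43, Ascl2 and Smoc2 passed as lower too, which turned the calls over all genes from 2715 higher and 2329 lower to 2165 higher and 3839 lower. Further quantile normalization gave 2254 higher and 2984 lower. In the knockout the count stayed at 7 under that shift, where the calls over all genes went from 3538 higher and 3154 lower to 3090 and 4276.

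The order of the 6 group means followed from these changes. For every gene the tumor groups came first and second. Axin2, Nkd1, Rnf43, Znrf3, Lgr5 and Ascl2 then had the untreated groups above the AOM+DSS groups and Lef1 had the reverse. In fl/fl mice only Lgr5 and Znrf3 passed between these colon groups, so for the other genes that order is of means only. The colon groups of Sp5 and Smoc2 did not pass in any of these limma comparisons. Within a condition the genotypes were neighbours in this order, and no difference between them passed the adjusted threshold.

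The effect of insulin receptor loss on these genes was tested in each condition. None of the 9 passed in untreated colon, AOM+DSS colon or tumors, where limma called 0.00451%, 0.541% and 0.00902% of all genes in either direction. At an unadjusted p under 0.05 there were 0, 2 and 1 of the 9, against 1114 (5.02%), 2898 (13.1%) and 990 (4.46%) of all genes. The smallest p in AOM+DSS colon was for Lgr5, with a knockout minus fl/fl difference of 0.37 ± 0.13 (95% interval 0.12 to 0.63, adjusted p = 0.145), with 9 of 10 knockout samples above the fl/fl median. On the dimmer Lgr5 probe set the difference was -0.04 ± 0.094, and with the mean of the probe sets it was 0.17. The Lef1 difference in AOM+DSS colon was 0.28 ± 0.098 (95% interval 0.08 to 0.47, adjusted p = 0.164), with all 10 samples above the fl/fl median. The T cell list mean there was 6.96 in the knockout and 6.63 in fl/fl, and the part of T cells in this difference was not tested. Over all alternatives the Lef1 difference lay between 0.251 and 0.3. The T cell covariate among them has a common slope over all groups, so it does not settle the part of T cells within AOM+DSS colon. In untreated colon the Lef1 difference was 0.19 ± 0.098 (95% interval -0.01 to 0.39, adjusted p = 0.993), again with all 10 knockout samples above the fl/fl median.

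**Figure D3:**
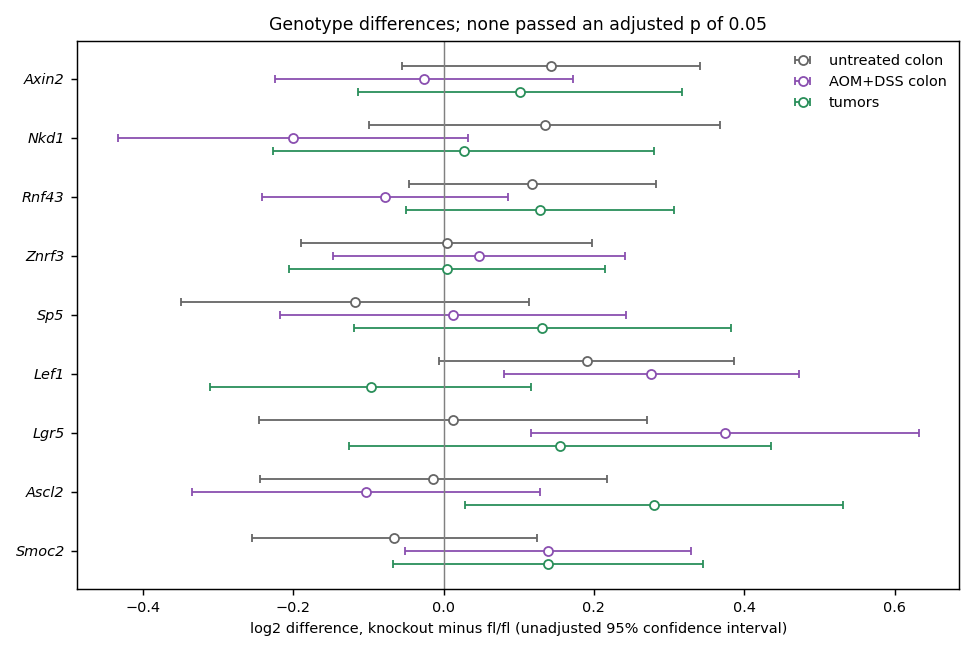
Log2 difference, knockout minus fl/fl (x axis), with its unadjusted 95% confidence interval for the 9 genes (y axis) in untreated colon, AOM+DSS colon and tumors. No difference passed the adjusted threshold, and the point farthest from 0 is Lgr5 in AOM+DSS colon at 0.37.

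In tumors the gene farthest from 0 was Ascl2, with a knockout minus fl/fl difference of 0.28 ± 0.13 (95% interval 0.03 to 0.53, adjusted p = 1), with 8 of 9 knockout tumors above the fl/fl median. The intervals for the feedback genes in tumors were -0.11 to 0.32 for Axin2, -0.23 to 0.28 for Nkd1, -0.05 to 0.31 for Rnf43 and -0.21 to 0.22 for Znrf3. For Lgr5 the interval was -0.13 to 0.44 and for Smoc2 -0.07 to 0.35, and for Sp5 and Lef1 -0.12 to 0.38 and -0.31 to 0.12. The tumor change itself was compared between genotypes by an interaction term, which no gene of the 22180 passed (0% called, and 1470 or 6.63% with an unadjusted p under 0.05). The knockout minus fl/fl difference in the gain was -0.37 ± 0.14 for Lef1 (adjusted p = 0.632) and for Ascl2 0.38 ± 0.17 (adjusted p = 0.694), and the other 7 had unadjusted p values of 0.0924 or more. For the AOM+DSS change 0 genes passed as well (0% called, 1351 or 6.09% unadjusted), with Nkd1 at -0.34 ± 0.16 and Lgr5 at 0.36 ± 0.18 the farthest of the 9.

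The tumors differed among themselves, and 6 of the genes did so together. Across the 17 tumors, with values centred by genotype, all 15 pairs among Axin2, Nkd1, Rnf43, Znrf3, Sp5 and Lef1 were correlated after adjustment over the 36 pairs, and so were Lgr5 and Smoc2. Ascl2 was in none of the 16 pairs. Axin2 with Znrf3 had the highest coefficient, with Pearson r = 0.94 (permutation p = 1e-05, the smallest that 100000 permutations can give, adjusted p = 0.00018) and Spearman rho = 0.846 (permutation p = 0.00015, adjusted p = 0.0018), and r was 0.845 without the 2 farthest tumors. Nkd1 with Lef1 had r = 0.913 (permutation p = 1e-05, adjusted p = 0.00018), rho = 0.885 (permutation p = 1e-05, adjusted p = 0.00036), and r = 0.876 without the 2 farthest. Lgr5 with Smoc2 had r = 0.752 (permutation p = 0.00119, adjusted p = 0.0033), rho = 0.588 (permutation p = 0.0197, adjusted p = 0.0473), and r = 0.566 without the 2 farthest. Lgr5 with Axin2 had r = 0.097 and rho = 0.086 (adjusted permutation p = 0.882 and 0.881), and Lgr5 with Ascl2 had r = -0.069 and rho = -0.029 (adjusted permutation p = 0.882 and 0.967).

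**Figure D4:**
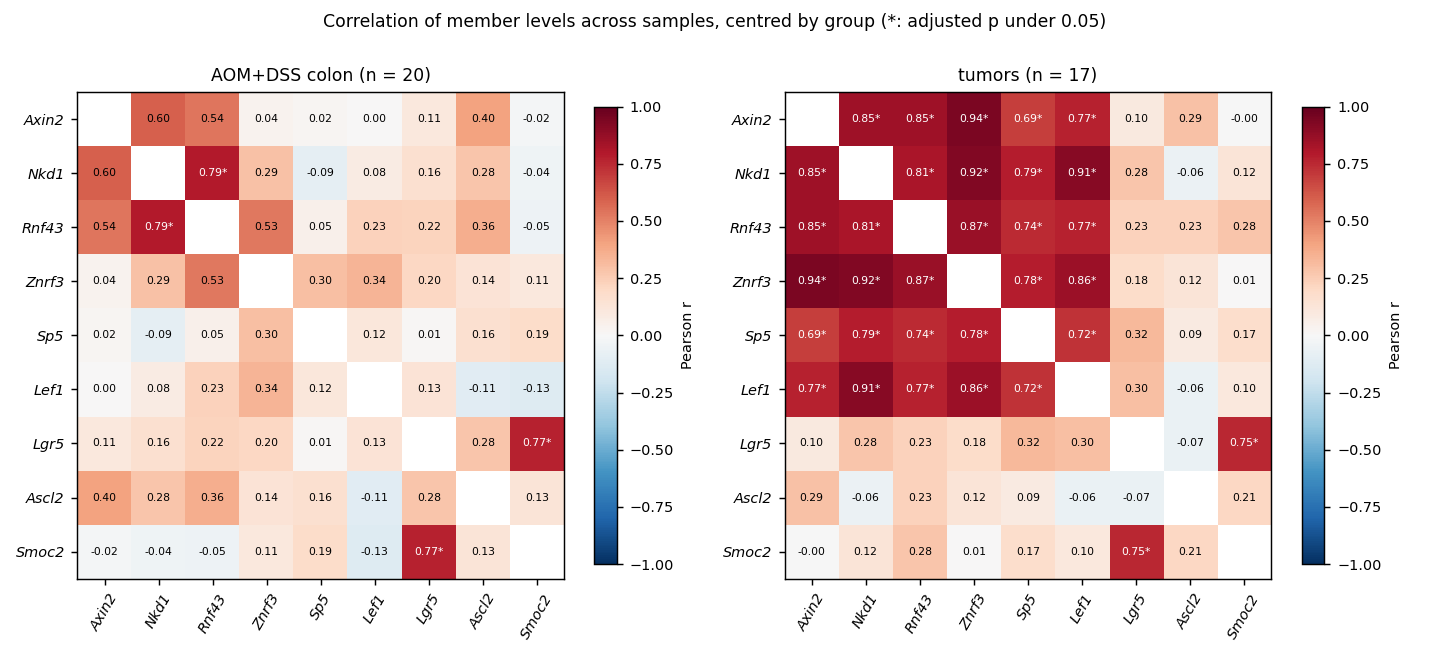
Pearson r between the 9 genes (both axes) across 20 AOM+DSS colon samples at left and 17 tumors at right, each centred by genotype; a star marks an adjusted permutation p under 0.05. In tumors the 6 genes from Axin2 to Lef1 form a block of 0.69 to 0.94, and in AOM+DSS colon only Nkd1 with Rnf43 and Lgr5 with Smoc2 are starred.

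The coefficients of all 15 pairs of the block were lower without fl/fl tumor 7, while that of Lgr5 with Smoc2 was 0.765 without it, 0.764 without both tumors numbered 7 and 0.767 over knockout minus fl/fl differences of the 8 same-numbered tumors. Fl/fl tumor 7 and knockout tumor 7 were each the lowest of their group for 6 of the 9 genes, and tumor 1 of each genotype was the highest for 5. Fl/fl tumor 7 also had the lowest mean correlation with its group among tumors, at 0.984. The 16 pairs had r of 0.688 to 0.94 with a median of 0.80 in all 17 tumors, 0.46 to 0.884 with a median of 0.698 without fl/fl tumor 7, and 0.488 to 0.859 with a median of 0.668 without both tumors numbered 7. Those 8 differences gave r of 0.144 to 0.767 with a median of 0.578, of which 0 passed after adjustment (exact permutation test). The tests over 17 tumors treat same-numbered tumors as unrelated. At most 2.63% of all genes were as alike to a gene of such a pair as its partner was. The pairs were picked by their r in these same tumors, so a low share was favoured by that choice and is no test of them. These samples share their array processing, whose part in the correlations was not tested.

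**Figure D5:**
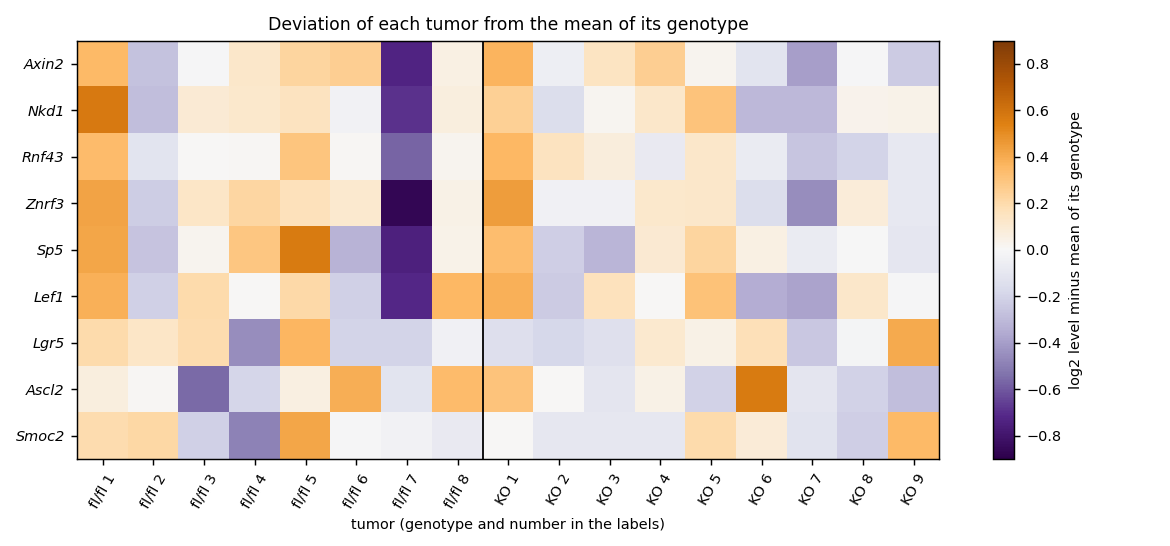
Log2 level of each gene (rows) in each of the 17 tumors (columns, by genotype and label number) minus the mean of its genotype; orange is above and purple below. Fl/fl tumor 7 and, less so, knockout tumor 7 are the lowest of their genotype for Axin2, Nkd1, Rnf43, Znrf3 and Lef1, and the sixth such gene is Sp5 in fl/fl and Lgr5 in the knockout.

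In AOM+DSS colon (20 samples, centred by genotype) 2 of the 36 pairs passed. Nkd1 with Rnf43 had r = 0.791 (permutation p = 4e-05, adjusted p = 0.00144), rho = 0.818 (permutation p = 5e-05, adjusted p = 0.0018) and r = 0.79 without the 2 farthest samples. Lgr5 with Smoc2 had r = 0.773 (permutation p = 0.0007, adjusted p = 0.0126), but rho = 0.477 (permutation p = 0.0448, adjusted p = 0.323) and r = 0.498 without the 2 farthest, so that relation rests on those samples. In untreated colon 0 of 36 pairs passed. Against the list means of epithelium, T cells, fibroblasts, smooth muscle and proliferation, 0 of 45 relations passed in untreated colon, in AOM+DSS colon or in tumors, with r from -0.608 to 0.594, -0.586 to 0.574 and -0.376 to 0.554.

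The genes most like each member across tumors were listed as a description, by Pearson r over the 17 tumors. Ldb1 (0.906) stood nearest to Axin2, Mdga2 (0.926) to Nkd1, Znrf1 (0.941) to Rnf43 and Dyrk1b (0.954) to Znrf3. Sik3 (0.897) stood nearest to Sp5 and Tenm4 (0.92) to Lef1. Lgr5 had its nearest gene at a lower value, Scara3 (0.804), while Taf1a (0.917) was nearest to Ascl2 and Col4a1 (0.901), a basement membrane collagen, to Smoc2. Over all 57 samples, which fall into separate tumor and colon clusters so that no coefficient is given, the genes nearest to the mean of the 9 were Fgfrl1, Spock2, Dkk2, Mdga2 and Notum.

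The rest of the pathway did not move as a whole in tumors against AOM+DSS colon, where 21% of all genes rose and 20.2% fell in fl/fl. Of 19 Wnt ligands, 6 rose and 4 fell in fl/fl, and 6 and 5 in the knockout, with a median of 0.08 and -0.05 beside 0.02 and 0.00 over all genes. Wnt10a rose by 1.36 ± 0.13, Wnt6 by 1.21 ± 0.12 and Wnt3 by 0.78 ± 0.11 in fl/fl, and Wnt2b changed by -0.82 ± 0.12. Of 15 receptors, 5 rose and 6 fell in fl/fl and 5 and 8 in the knockout. Lrp5, a co-receptor, rose by 0.70 ± 0.081, whereas Ror1 changed by -1.36 ± 0.093, Fzd5 by -0.87 ± 0.092 and Fzd4 by -0.51 ± 0.072. Of 6 R-spondins and further Lgr receptors, 1 rose and 2 fell in fl/fl and 1 and 4 in the knockout. Lgr6, the relative of Lgr5, rose by 1.19 ± 0.11 in fl/fl and 1.58 ± 0.11 in the knockout. Rspo3, a ligand of Lgr receptors, changed by -1.52 ± 0.14 and -1.63 ± 0.13, and Lgr4, the broadly expressed receptor, by -0.37 ± 0.081 and -0.39 ± 0.079. Rspo1 was at -0.22 ± 0.099 in fl/fl (adjusted p = 0.0682).

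Inside the cell, 8 of 16 measured genes of the destruction complex and Dishevelled rose and 3 fell in fl/fl, and 7 and 3 in the knockout. Ctnnb1, which encodes beta-catenin, rose by 0.53 ± 0.04, and Tnks2, a tankyrase that marks Axin for degradation, by 0.69 ± 0.045. Nkd2, the relative of Nkd1, changed by -1.23 ± 0.11 in fl/fl and -1.06 ± 0.11 in the knockout, opposite to Nkd1, and Dact3, which binds Dishevelled, by -1.002 ± 0.12 in fl/fl and -0.66 ± 0.11 in the knockout. Of 10 TCF factors and partners, 3 rose and 3 fell in fl/fl and 3 and 4 in the knockout. Tcf7l1, a relative of Lef1, changed by -0.96 ± 0.11 and the co-repressor Tle4 by -0.89 ± 0.11. Tle3 rose by 0.92 ± 0.11 and Bcl9, a beta-catenin co-activator, by 0.63 ± 0.063. In the same comparison all 12 smooth muscle markers fell in both genotypes. The part of tissue make-up in the changes of the rest of the pathway was not tested.

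Further target and stem cell genes were mostly higher. Of 20 other Wnt targets measured, 14 rose and 0 fell in fl/fl and 14 and 1 in the knockout, with medians of 0.94 and 0.77. Wif1 and Notum, secreted Wnt inhibitors, rose by 5.15 ± 0.14 and 5.10 ± 0.11, Prox1, a homeobox factor, by 4.82 ± 0.14 and Sox4 by 2.44 ± 0.085 in fl/fl. Of 18 other crypt stem genes measured, 11 rose and 2 fell in fl/fl and 11 and 1 in the knockout, with medians of 0.68 and 0.73. Tnfrsf19 rose by 2.16 ± 0.097, Rnf32 by 2.09 ± 0.15, Mex3a by 1.65 ± 0.12 and Msi1 by 1.24 ± 0.10. Tnfrsf19 stands in both lists, and Lgr6 stands in the target list as well as with the receptors.

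Between AOM+DSS and untreated colon, 7 of the 20 targets rose and 2 fell in fl/fl, and 6 and 3 in the knockout. The background over all genes was 12.2% higher and 10.5% lower in fl/fl, and 16% and 14.2% in the knockout. The counts of lower targets are near that background. Wif1 rose by 0.63 ± 0.13 in fl/fl and 0.71 ± 0.13 in the knockout and Prox1 by 0.50 ± 0.14 and 0.69 ± 0.14, in the samples where Lgr5 and Znrf3 fell. Notum was at -0.06 ± 0.10 and 0.07 ± 0.10 (adjusted p = 0.711 and 0.668). Of the 18 stem genes, 1 rose and 3 fell in fl/fl and 2 and 5 in the knockout, with Rnf32 at -0.61 ± 0.14 and -0.88 ± 0.14. Rspo3 rose by 0.43 ± 0.13 and 0.47 ± 0.13, the opposite of its change in tumors, and both comparisons share the AOM+DSS samples.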

How the data were processed

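The authors' deposited table holds log2 expression values for 41345 probe sets on 57 arrays. The submitters' processing notes name RMA as the method, with no version in the sources used here. RMA brings arrays to a common scale, on which a global shift can be lost, and the deposited array medians still ran from 5.92 to 6.04. Per the labels' protocols, 250 ng of total RNA was labelled with the WT Plus kit. The number of arrays limits the precision. The probe table names 25335 probe sets, 23521 with 1 symbol. For the 1082 genes with several, the brightest was used, leaving 22180 genes, and no dim gene was removed.

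Groups came from the sample titles. All tests used limma 3.58.1 in R 4.3.3 (lmFit, contrasts.fit, eBayes) with the 6 groups over all 57 arrays, two-sided, Benjamini-Hochberg over 22180 genes, threshold 0.05, and were checked on simulated data. Changes are log2 differences ± SE. Correlations used permutation tests with 100000 permutations. A sample below all of another group is below its lowest value. Replicate numbers are shared by the groups, but not every same-numbered pair deviated together (between fl/fl and knockout tumors r was over 0.1 in 5 of 8, median 0.132, and between untreated groups in 5 of 10, median 0.104). Pairing asked for every pair over 0.1, so no block was used in the tests reported. That rule is strict, and its failure does not show that same-numbered samples are unrelated. Alternatives were other scalings, filters, probe set rules, spreads, weights, left-out arrays and marker list means as covariates.

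All 10 members are named. Of each pathway, target, stem and epithelial list, the 4 genes with the smallest adjusted p in the fl/fl tumor comparison are named. The other marker lists are given by counts and means. Epcam was added after its values were seen. The members and lists were chosen with earlier results of these data known. Motifs were matched as letters in RefSeq (GRCm38.p6) promoter windows.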

Additional observations from a re-analysis of the deposited data

Results flagged for a closer look

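Of 54 groups of samples searched (9 genes in 6 groups), 3 held a sample far from the others by Dixon's test, and chance gives about 1 in 20. Rnf43 was at 9.20 in fl/fl AOM+DSS replicate 1, where the group median was 8.86. Ascl2 was at 8.35 in untreated fl/fl replicate 8, where the median was 7.79, and this colon sample is the one that reached the lowest tumor. Lef1 was at 7.09 in untreated knockout replicate 1, where the median was 6.76.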

How the results depend on the processing

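Tumor counts stayed at 9 of 9 and genotype counts at 0 of 9 in all 15 alternatives, and no direction of a called change was reversed. Against AOM+DSS colon, tumor calls over all genes went from 9143 to 2063 in fl/fl with the smooth muscle covariate. In the knockout they went from 9511 to 2151. In AOM+DSS against untreated fl/fl colon, 2 genes passed, with 5044 called over all 22180 genes. The count was 5 after a shift to 1 median (6004 over all genes) and 5 after further quantile normalization (5238). It was 4 with only the compared groups (4693), 5 with array weights (5754) and 1 with the T cell list mean as a covariate (416). In the knockout 7 passed, with 6692 called over all genes. There 0 passed with the T cell (207 over all genes) and 1 with the B cell list mean (1299) as a covariate. The cause of these shifts was not tested. With the replicate number as a block, 3 passed in fl/fl and 7 in the knockout, with 5438 and 7071 called over all genes. The rule for pairing was not met. The B cell and squamous covariates and the analyses without tumors numbered 7 were chosen after seeing the data. Tumor changes ranged most for Lgr5, from 2.35 with the mean of the probe sets to 3.55 with the B cell covariate in fl/fl. The dimmer probe sets of Axin2 and Lgr5 are nearer to the array medians. Removing dim genes changed no count of the 9, but that filter acted on the brightest probe sets and does not bear on the dimmer ones.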
